A study of Mus musculus with 19 samples.

Results

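A set of 7 serpin genes was named for study in mouse muscle without desmin, namely Serpinb1a, Serpinb6a, Serpinb9, Serpina3n, Serpina3g, Serpinf1 and Serping1. They were chosen by name with earlier results of these data known. The differences between knockout and wild-type muscle are therefore given as descriptions with their errors. No member has a p-value for genotype, and counts of members past the threshold are printed only beside the share of all genes. Lists of other genes were also chosen with those results known, so their genotype p-values are descriptive and no independent test. The array annotation gave 6 of the 7 genes a probe set of a single symbol, out of 12393 genes named in this way. Serpina3g had none and has no level here. Each gene was read from the probe set with the highest mean over the 19 arrays, and all 6 lay among the 7436 brighter genes that were tested.

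Serpins fold into one shared structure with an exposed loop that a protease cuts, after which an inhibitory serpin traps the protease in a covalent complex. Clade B members stay inside the cell: Serpinb1a inhibits neutrophil elastase, cathepsin G and proteinase 3, Serpinb6a inhibits cathepsin G and other trypsin-like or chymotrypsin-like proteases, and Serpinb9 inhibits granzyme B. Serpina3n, a secreted relative of human antichymotrypsin, is an acute phase protein, and Serpina3g belongs to the same gene cluster. Serpinf1 encodes pigment epithelium-derived factor, a secreted serpin that does not inhibit proteases, and Serping1 encodes the C1 inhibitor, which blocks the complement proteases C1r and C1s and the contact proteases.

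The study asked how the cytoskeleton bears on the transcriptional response of muscle to altered use. Tibialis anterior muscle of 129/SVE mice was collected 12 hours after 50 eccentric contractions, in which the muscle lengthens while active. Wild-type and desmin knockout (Des(-/-)) mice were compared at 7 to 9 weeks (adult) and at 12 to 14 months (aged), with 5 adult wild-type, 5 aged wild-type, 5 adult knockout and 4 aged knockout arrays. All 4 groups had performed the contractions, and unexercised muscle was not analysed here, so no value below separates the exercise from the resting state. The labels do not say whether the replicates came from separate animals, and a p-value here reflects array-to-array spread that may be technical. RNA came from whole muscle, where more cells of a type and more RNA per cell cannot be told apart.

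Signal for desmin itself, the muscle intermediate filament protein, was 10749 to 22313 on the wild-type arrays and 72.7 to 879 on the knockout arrays, so the labels held. All 16 myofibre markers were above the bacterial trpn control probe sets on every array. Spiked poly-A control RNA (dap) gave 1184 to 3103 on 8 arrays and at most 17.4 on the other 11. The 8 arrays were the 5 of aged wild-type muscle and replicates 3, 4 and 5 of adult knockout muscle, so the wild-type age comparison and the aged genotype comparison both lie wholly across this split, and it runs through the adult knockout group. Aged knockout replicates 2 and 3 had Gapdh 3′ to 5′ signal ratios of 8.61 and 5.01, against 0.766 to 0.968 on the other 17 arrays. Array intensities are MAS5 signals on a linear scale, and levels are compared between arrays within a probe set only. Differences are on the scale of log2(signal + 4.76) after quantile normalization, with the standard error of a limma model over all 19 arrays.

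Serpinb1a, Serpinb9 and Serpinb6a lie on mouse chromosome 13, with 2 coding genes between the first pair and 11 between the second, all of them serpins. Serpina3g and Serpina3n lie on chromosome 12 with 4 serpin genes between them, Serpinf1 on chromosome 11 and Serping1 on chromosome 2. RefSeq promoter windows on GRCm38.p6 matched 5 of the 7 genes, in 6 windows, and none matched Serpinb1a or Serping1. The 250 bases before a start site are printed for Serpinb6a, the member whose genotype difference was largest against its spread, and for the Serpina3 pair, whose measured member differed most with age. They were searched on both strands for TTCNNNGAA, the spacing bound by many STAT factors, for the same arms with 4 bases between them, the spacing preferred by STAT6, and for TATAAA. Capitals mark a match.
Serpinb6a (chr13:34002795-34003044, minus strand): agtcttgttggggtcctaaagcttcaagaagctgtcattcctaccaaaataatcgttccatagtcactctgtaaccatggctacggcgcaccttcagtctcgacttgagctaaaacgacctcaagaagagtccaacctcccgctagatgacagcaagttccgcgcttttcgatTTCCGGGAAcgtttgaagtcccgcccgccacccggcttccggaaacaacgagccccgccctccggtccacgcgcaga
Serpina3n (chr12:104406458-104406707, plus strand): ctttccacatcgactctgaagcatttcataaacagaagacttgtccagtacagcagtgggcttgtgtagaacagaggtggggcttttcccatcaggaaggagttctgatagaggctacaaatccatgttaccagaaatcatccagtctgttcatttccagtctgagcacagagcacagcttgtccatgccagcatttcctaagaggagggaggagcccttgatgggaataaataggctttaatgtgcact
Serpina3g (chr12:104235897-104236146, plus strand): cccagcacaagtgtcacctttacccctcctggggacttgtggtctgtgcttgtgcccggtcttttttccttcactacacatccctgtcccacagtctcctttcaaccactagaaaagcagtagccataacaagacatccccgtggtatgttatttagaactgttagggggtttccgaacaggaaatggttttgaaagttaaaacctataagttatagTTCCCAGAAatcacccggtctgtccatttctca

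Serpinb6a had 1 match to TTCNNNGAA, starting at -77 from the start site, and Serpina3g had 1 at -33. Serpina3n, Serpinb9, Serpinf1 and the other Serpinb6a window held none of the 3 motifs. Over 32851 windows of 250 bases, TTCNNNGAA was present in 7.02%, the wider spacing in 5.85% and TATAAA in 12.4%. The bases just after the start site, which RefSeq includes in the full windows, brought Serpinb6a to 2 matches of TTCNNNGAA and 1 of the wider spacing over its windows, which full windows hold in 8.3% and 6.95% of cases. A match describes the letters and not the binding of a factor.

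Serpinb1a, the inhibitor of neutrophil serine proteases, was several times brighter in knockout than in wild-type muscle at both ages. Its signal was 741, 613, 476, 729 and 330 in adult wild-type replicates 1 to 5 and 921, 691, 548, 526.5 and 352 in aged wild-type replicates. Adult knockout replicates gave 3311, 6545, 4982, 2812 and 3193, and aged knockout replicates 2784, 3943, 5031 and 6547. Every knockout array was above every wild-type array, with a lowest knockout signal of 2784 and a highest wild-type signal of 921, while the ages overlapped within each genotype. The group means were 578 ± 175 (SD, n = 5) and 608 ± 212 (SD, n = 5) in adult and aged wild-type muscle, and 4168 ± 1568 (SD, n = 5) and 4576 ± 1602 (SD, n = 4) in adult and aged knockout muscle.

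In log2 terms, Serpinb1a was higher in adult knockout than in adult wild-type muscle by 2.81 (SE 0.31), or 7.03-fold. The difference between the genotypes was 2.94 (SE 0.33), or 7.67-fold, in aged muscle. Because genotype served in choosing the gene, these values have no test. The other Serpinb1a probe set, whose name marks it as shared with similar transcripts, had the same order of groups, from 44.1 to 145 on wild-type arrays and from 279 to 985 on knockout arrays. With age, Serpinb1a differed by 0.11 (SE 0.31, limma adjusted p = 0.803) in wild-type and by 0.23 (SE 0.33, limma adjusted p = 0.731) in knockout muscle. On the other probe set the wild-type age difference was larger, at 0.77, with log2 means of 6.48 in aged and 5.72 in adult muscle. The genotype difference changed with age by 0.13 (SE 0.45, limma adjusted p = 0.865), with a 95% interval of -0.82 to 1.07.

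Serpinb6a, which encodes an inhibitor of cathepsin G and related proteases, also separated the genotypes, with the tightest groups of the 6 genes. Its signal was 4633, 3749, 3988, 3190 and 3055 in adult wild-type muscle and 4136, 4981, 4446, 4806 and 4488 in aged wild-type muscle. It was 12587, 13599, 11223, 10940 and 10707 in adult knockout muscle and 9254, 10157, 10810 and 9936 in aged knockout muscle. No knockout array overlapped a wild-type array, and the highest signals were those of adult knockout replicates 1 and 2. The knockout was higher by 1.59 (SE 0.11), or 3.02-fold, in adult and by 1.19 (SE 0.12), or 2.28-fold, in aged muscle.

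Serpinb6a did not pass the test for age in either genotype. The aged minus adult difference was 0.27 (SE 0.11, limma adjusted p = 0.0662) in wild-type and -0.13 (SE 0.12, limma adjusted p = 0.567) in knockout muscle, and the change of the genotype difference with age was -0.41 (SE 0.17, limma adjusted p = 0.0822). The wild-type difference passed under 3 alternatives and when adult wild-type replicate 1 was left out, where it was 0.36 (limma adjusted p = 0.023). The change with age passed with median centring (-0.85, limma adjusted p = 0.0242), without normalization (-0.54, limma adjusted p = 0.039), with a trended robust prior (limma adjusted p = 0.0359) and without adult wild-type replicate 1 (-0.49, limma adjusted p = 0.0348). Neither passed with the poly-A split as a term. The wild-type age difference was then 0.36 (SE 0.20, limma adjusted p = 0.418) and the change with age -0.54 (SE 0.30, limma adjusted p = 0.363). Over all 19 arrays the log2 values of Serpinb6a and Serpinb1a correlated at r = 0.94, and at r = 0.33 once group means were removed, so most of the shared pattern was the difference between groups.

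**Figure D1:**
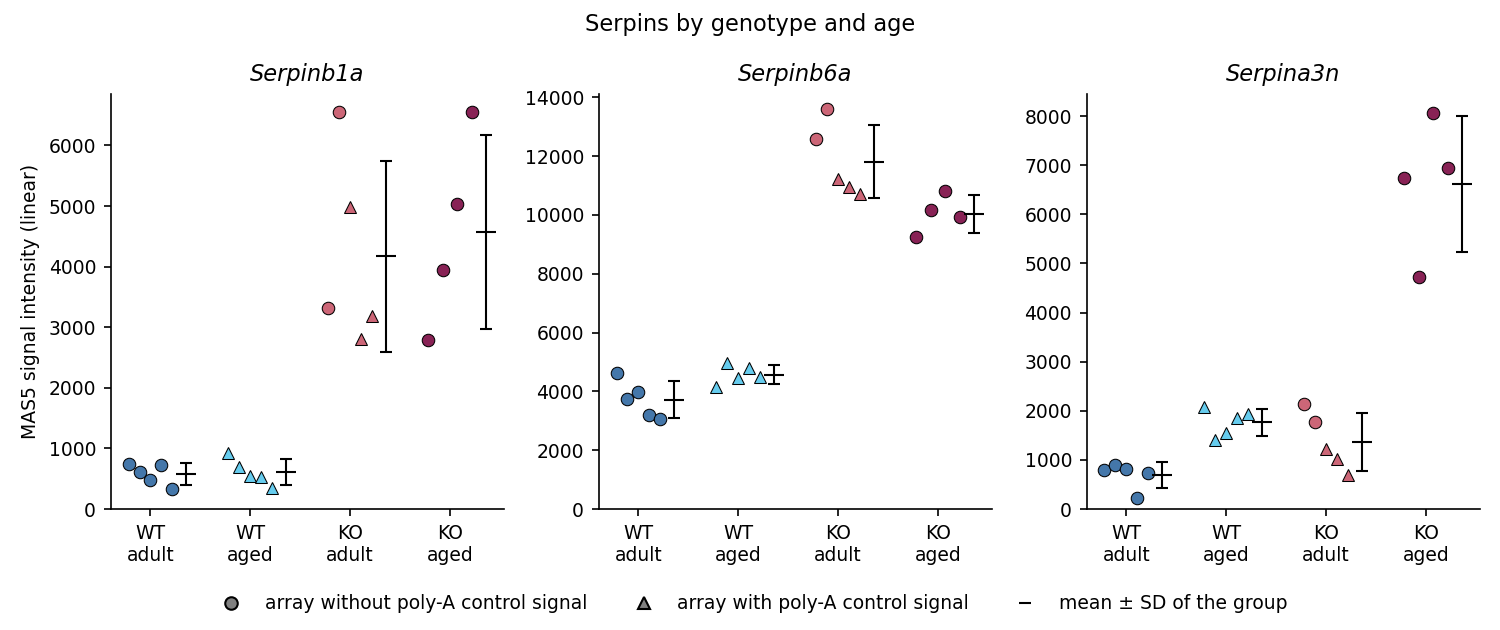
MAS5 signal intensity (linear axis from 0) of Serpinb1a, Serpinb6a and Serpina3n on each array of the 4 groups; circles are arrays without and triangles arrays with poly-A control signal, and bars are the mean ± SD of 5, 5, 5 and 4 arrays. The lowest knockout signal of Serpinb1a, 2784, is above the highest wild-type signal, 921, and aged knockout Serpina3n, from 4728 to 8067, is above all other groups.

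Serpina3n, the secreted acute phase serpin, was brightest in aged knockout muscle and differed with age in both genotypes. Adult wild-type replicates gave 802, 887, 814, 235 and 738, and aged wild-type replicates 2071, 1412, 1543, 1847 and 1943. Adult knockout replicates gave 2138, 1782, 1220, 1013 and 694, and aged knockout replicates 6747, 4728, 8067 and 6940. Adult wild-type muscle was lowest, at 695 ± 263 (SD, n = 5), followed by adult knockout at 1369 ± 584 (SD, n = 5), aged wild-type at 1763 ± 277 (SD, n = 5) and aged knockout muscle at 6620 ± 1389 (SD, n = 4). Adult knockout arrays overlapped both wild-type groups, whereas aged knockout arrays overlapped none.

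Serpina3n rose with age in wild-type muscle by 1.48 (SE 0.35, limma adjusted p = 0.00387), or 2.79-fold, with all 5 aged arrays above all 5 adult arrays. It rose with age in knockout muscle by 2.40 (SE 0.37, limma adjusted p = 0.00204), or 5.28-fold, with all 4 aged arrays above all 5 adult arrays. These age comparisons use the same arrays as the genotype differences that served in the choice of genes. The knockout was higher by 1.04 (SE 0.35) in adult and by 1.96 (SE 0.37), or 3.88-fold, in aged muscle, values that were 1.67 (SE 0.42) and 0.91 (SE 0.56) with the split as a term. The difference between the first 2 values, 0.92 (SE 0.51), did not pass the test (limma adjusted p = 0.196), and its 95% interval ran from -0.16 to 1.99.

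The wild-type age comparison of Serpina3n lies wholly across the poly-A split. With the split as a term, which only the adult knockout arrays can estimate, it was 2.53 (SE 0.55) and no longer passed (limma adjusted p = 0.109), while the knockout age difference was 1.77 (SE 0.43, limma adjusted p = 0.0222). Among arrays without poly-A signal alone, the aged minus adult knockout difference was 1.77 (SE 0.50, 4 against 2 arrays, limma adjusted p = 0.106). Without adult wild-type replicate 4, the lowest array of its group, the change of the genotype difference with age was 1.30 and passed the test (limma adjusted p = 0.0203), and with limma array weights it was 1.56 (limma adjusted p = 0.00209); with the split as a term it was -0.76 (limma adjusted p = 0.64).

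Markers of leukocytes moved with age beside Serpina3n. All 5 tested neutrophil markers rose with age in wild-type muscle and 3 of 5 rose in knockout muscle, where the list median was 2.26 and 1.70. Among all tested genes, limma called 18.1% higher and 20.8% lower with age in wild-type muscle, and 3.68% higher and 3.75% lower in knockout muscle. Of 18 tested macrophage and monocyte markers, 11 rose in wild-type muscle, and 3 rose and 1 fell in knockout muscle. With the split as a term, limma called 0 of 5 and 0 of 18 in wild-type muscle, where 3 and 9 had an unadjusted p under 0.05. The list medians there were 2.30 and 1.20, against 2.26 and 1.09 without the term. In knockout muscle 1 of 5 neutrophil markers rose, and 3 macrophage markers rose and 1 fell, in that model. The summed signal of the 12 named neutrophil markers was 661 to 2034 in adult wild-type, 2701 to 13640 in aged wild-type, 563 to 4701 in adult knockout and 7289 to 13288 in aged knockout muscle. Over 19 arrays that sum correlated with Serpina3n at r = 0.78, and at r = 0.34 after removal of group means. The part of these cells in the Serpina3n values was not tested.

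Between genotypes, where Serpinb1a and Serpinb6a stood apart, limma called 0 of 5 neutrophil markers and 0 of 18 macrophage markers at either age. At an unadjusted p under 0.05 the counts were 1 of 5 and 3 of 18 in adult muscle and 0 of 5 and 2 of 18 in aged muscle, at medians of 1.01 and 0.35 in adult and 0.49 and 0.20 in aged muscle. The summed neutrophil markers correlated with Serpinb1a at r = 0.28 and with Serpinb6a at r = 0.26 over 19 arrays. The summed satellite cell and regeneration markers correlated with these 2 genes at r = -0.94 and -0.96, and at r = -0.47 and -0.06 for deviations from the group means. That list holds Des, at 10749 to 22313 on wild-type arrays, so its sum was bound to be lower in the knockout. Its 10 tested genes did not fall together, with 4 higher and 3 lower in adult and 4 higher and 4 lower in aged knockout muscle. With the split as a term 3 were higher and 3 lower in adult and 1 higher and 3 lower in aged knockout muscle. Endothelial markers differed too, with 13 of 16 lower in adult and 8 of 16 lower and 1 higher in aged knockout muscle, or 10 and 4 lower with the split as a term. Their summed signal was 12446 to 24570 on wild-type and 7787 to 11430 on knockout arrays. It correlated with Serpinb1a and Serpinb6a at r = -0.83 and -0.89, or -0.20 and 0.13 for deviations, and its part in the serpin values was not tested.

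Serpinf1, the gene of pigment epithelium-derived factor, varied more within adult knockout muscle than between the genotypes. Its signal was 2248, 2941, 3046, 1601 and 1438 in adult wild-type and 1325, 720, 1655, 1732 and 1109 in aged wild-type muscle. It was 3635 and 3856 in adult knockout replicates 1 and 2 but 819, 973 and 1663 in replicates 3, 4 and 5, and 1786, 2846, 2965 and 2529 in aged knockout muscle. Within adult knockout muscle the arrays without poly-A signal were thus all above those with it. On this probe set the knockout and wild-type ranges overlapped in adult muscle only. On the other Serpinf1 probe set they overlapped at both ages, with 106 to 376 in aged wild-type and 229 to 609 in aged knockout muscle.

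The knockout minus wild-type difference of Serpinf1 was -0.30 (SE 0.38) in adult and 0.98 (SE 0.40) in aged muscle. Both turned when the split was a term, to 0.73 (SE 0.35) and -0.74 (SE 0.47). The aged minus adult difference was -0.80 (SE 0.38, limma adjusted p = 0.098) in wild-type and 0.47 (SE 0.40, limma adjusted p = 0.53) in knockout muscle, and neither passed. When only the 2 wild-type groups were fitted, the age difference of -0.80 passed (limma adjusted p = 0.0332), as did -1.01 with array weights (limma adjusted p = 0.00442), and with the split as a term it was 0.91 (limma adjusted p = 0.382).

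Serping1, the gene of the C1 inhibitor, had the same division of the adult knockout arrays, as did Serpina3n (1782 to 2138 without and 694 to 1220 with poly-A signal) and, over a narrower span, Serpinb6a. Its signal was 2000, 2374, 2426, 1348 and 1295 in adult wild-type and 2188, 1137, 2401, 2251 and 1620 in aged wild-type muscle. It was 3197 and 4025 in adult knockout replicates 1 and 2, 1301, 1751 and 1952 in replicates 3, 4 and 5, and 2961, 3631, 4314 and 3814 in aged knockout muscle. All aged knockout arrays were above all wild-type arrays, while of the adult knockout arrays 2 were above the wild-type range and 3 inside it.

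The knockout minus wild-type difference of Serping1 was 0.26 (SE 0.28) in adult and 1.01 (SE 0.30), or 2.02-fold, in aged muscle, and 0.91 (SE 0.29) and -0.07 (SE 0.40) with the split as a term. Within arrays without poly-A signal, where age differs too, aged knockout exceeded adult wild-type muscle by 1.02 (SE 0.22, 4 against 5 arrays). With age Serping1 differed by 0.01 (SE 0.28, limma adjusted p = 0.988) in wild-type and by 0.76 (SE 0.30, limma adjusted p = 0.125) in knockout muscle. With the split as a term these age differences were 1.09 (SE 0.39, limma adjusted p = 0.246) and 0.11 (SE 0.30, limma adjusted p = 0.837), so their order turned. The change of the genotype difference with age was 0.75 (SE 0.41, limma adjusted p = 0.183) for Serping1 and 1.28 (SE 0.55, limma adjusted p = 0.0969) for Serpinf1. Array weights brought these to 1.44 (limma adjusted p = 0.00393) and 2.15 (limma adjusted p = 0.00113), whereas the split as a term turned them to -0.98 and -1.47. Array weights also brought the knockout age difference past the threshold, at 1.24 (limma adjusted p = 0.0102) for Serping1 and 1.14 (limma adjusted p = 0.047) for Serpinf1. The Serpinf1 interaction passed without adult knockout replicate 1 (1.52, limma adjusted p = 0.0368) or 2 (1.55, limma adjusted p = 0.0304), and the Serping1 knockout age difference without replicate 2 (0.96, limma adjusted p = 0.0394).

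**Figure D2:**
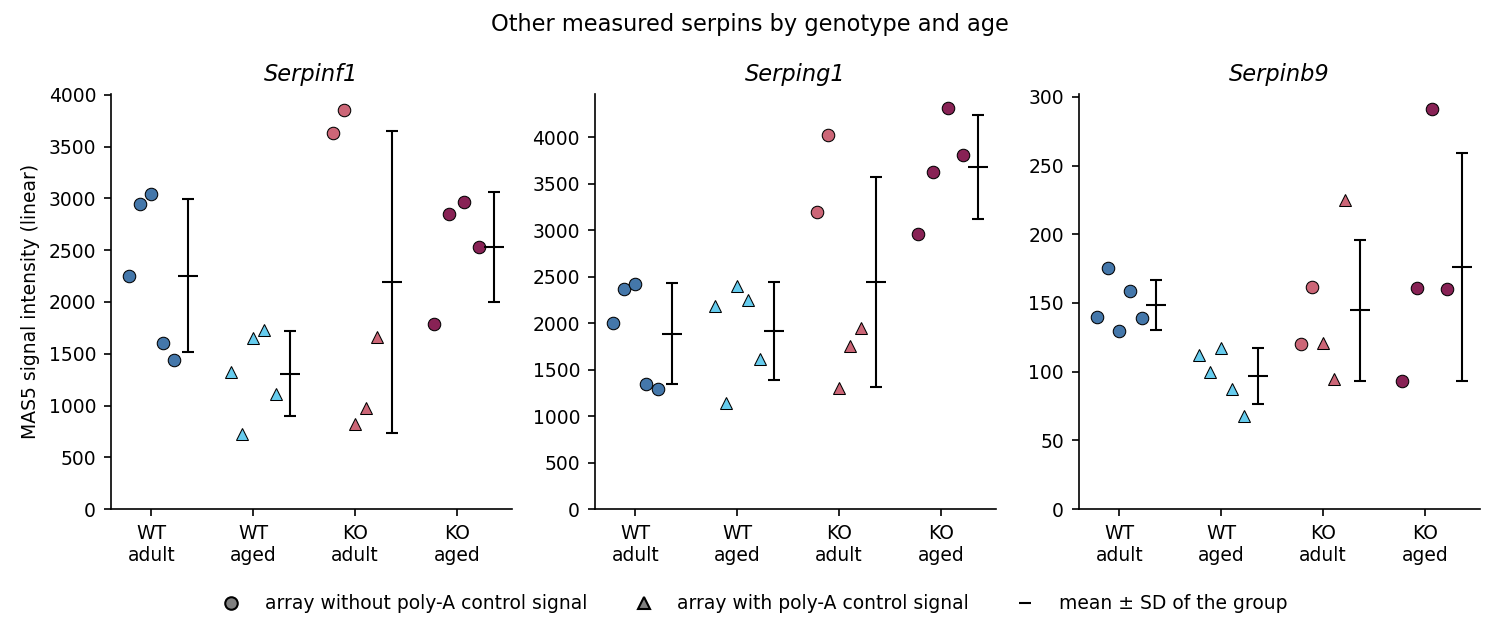
MAS5 signal intensity (linear axis from 0) of Serpinf1, Serping1 and Serpinb9 on each array, with circles and triangles for arrays without and with poly-A control signal and bars for the mean ± SD of 5, 5, 5 and 4 arrays. In adult knockout muscle Serpinf1 is 3635 and 3856 without and 819 to 1663 with poly-A signal, and Serpinb9 is between 67.4 and 291 on every array.

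Serpinf1 and Serping1 varied together across the arrays, at r = 0.81 over 19 arrays and r = 0.95 for deviations from the group means. Both followed the summed signal of 15 fibroblast markers, led by Gsn (gelsolin), Dcn (decorin) and Col3a1 (a fibrillar collagen chain). The correlation of that sum with Serpinf1 was r = 0.91, and r = 0.96 for deviations, and with Serping1 it was r = 0.77 and r = 0.92, whereas with Serpinb6a it was r = 0.44 and r = 0.10. The sum was 60355 to 65889 on the adult knockout arrays without poly-A signal and 30232 to 51184 on those with it, 23351 to 36912 in aged wild-type, 38873 to 50657 in adult wild-type and 40498 to 56597 in aged knockout muscle. These points share the arrays, the groups and the split, and the part of fibroblast number in the values was not tested.

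**Figure D3:**
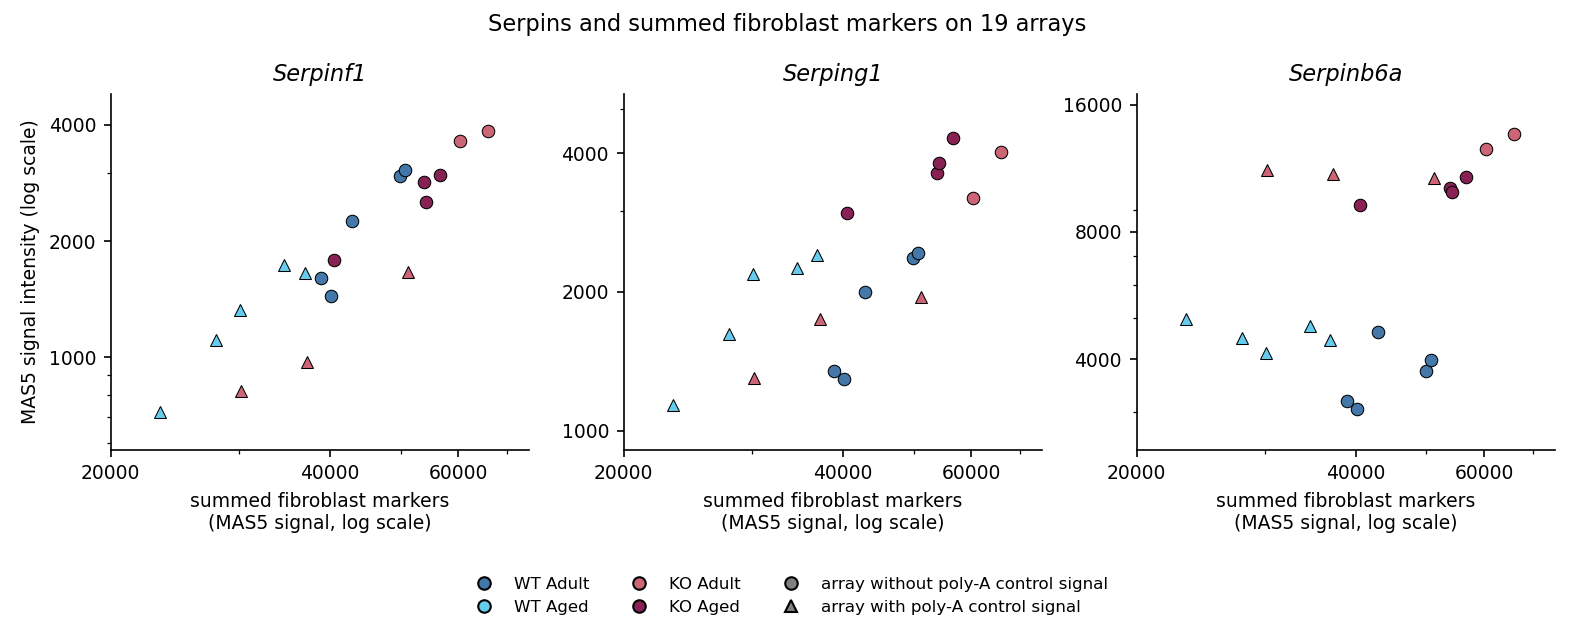
MAS5 signal intensity of Serpinf1, Serping1 and Serpinb6a (vertical, log axis) against the summed signal of 15 fibroblast markers (horizontal, log axis) on 19 arrays, with colours for the groups and circles and triangles for arrays without and with poly-A control signal. Serpinf1 and Serping1 rise along the horizontal axis, while Serpinb6a lies in a knockout band from 9254 to 13599 and a wild-type band from 3055 to 4981.

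Serpinb9, the granzyme B inhibitor, had group ranges that overlapped between the genotypes at both ages. Its signal was 140, 175, 130, 159 and 139 in adult wild-type, 112, 99.7, 118, 87.2 and 67.4 in aged wild-type, 120, 162, 121, 94.7 and 225 in adult knockout and 93.1, 161, 291 and 160 in aged knockout muscle. In the deposited signal the aged wild-type arrays were all below the adult wild-type arrays, a separation that did not hold after normalization. The genotype difference was 0.13 (SE 0.27) in adult and 0.67 (SE 0.29) in aged muscle. The age difference was -0.44 (SE 0.27, limma adjusted p = 0.195; -0.52 and 0.0431 with array weights) in wild-type and 0.09 (SE 0.29, limma adjusted p = 0.889) in knockout muscle. The change of the genotype difference with age was 0.54 (SE 0.39, limma adjusted p = 0.326). The 2 aged knockout arrays of high Gapdh ratio were among the brighter for Serpinb9, and without them the aged genotype difference was 0.12 and the knockout age difference -0.46 (limma adjusted p = 0.446). Adult knockout replicate 5, the brightest of its group, had a summed signal of 24 interferon target genes of 40560, against 7146 to 17291 on the other arrays. Aged knockout replicate 3, the brightest array of all for Serpinb9, had a sum of 16157. Without adult knockout replicate 5 the adult genotype difference of Serpinb9 was -0.02. The part of interferon in these values was not tested.

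Counted against the tested genes, 2 of the 6 serpins, Serpinb1a and Serpinb6a, passed an adjusted p of 0.05 for higher signal in adult knockout than in adult wild-type muscle, where 7.32% of 7436 genes did. By limma 0 were lower, where 9.37% of genes were, and 0 were lower at an unadjusted p under 0.05. In aged muscle 4 of 6 were higher in the knockout (Serpinb1a, Serpina3n, Serpinb6a and Serping1), against 16.9% of genes. Groups did not overlap, with the knockout higher, for 2 of 6 in adult muscle (4.49% of genes) and 5 of 6 in aged muscle (18.1% of genes). With the split as a term 3 of 6 passed as higher in adult knockout muscle (Serpinb1a, Serpina3n and Serpinb6a; 3.56% of genes) and 2 of 6 in aged knockout muscle (Serpinb1a and Serpinb6a; 2.95% of genes). Since genotype served in the choice, nothing is read from these counts.

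For age, 1 of 6, Serpina3n, was higher in aged than in adult wild-type muscle, against 18.1% of genes, and 1 of 6, again Serpina3n, in aged than in adult knockout muscle, against 3.68% of genes. The groups did not overlap for the same gene in each case, against 12.0% of genes in wild-type and 4.25% in knockout muscle. With the split as a term limma called 0 of 6 in wild-type muscle (0.0672% of genes), with 2 at an unadjusted p under 0.05, and 1 of 6, Serpina3n, in knockout muscle (4.80% of genes). By limma 0 of 6 passed the interaction of genotype and age, against 14.3% of genes higher and 10.8% lower, and 2 of 6, Serpinb6a and Serpinf1, had an unadjusted p under 0.05. The median of the 6 differences was 0.65 in adult and 1.10 in aged muscle for genotype, where that of all tested genes was 0.04 and 0.07. For age it was 0.06 in wild-type and 0.35 in knockout muscle, where that of all tested genes was -0.03 and 0.03. With the split as a term the medians of the 6 were 1.28 and 0.76 for genotype and 0.67 and 0.05 for age, so both orders turned. Nothing is read from the genotype medians, since genotype served in the choice.

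**Figure D4:**
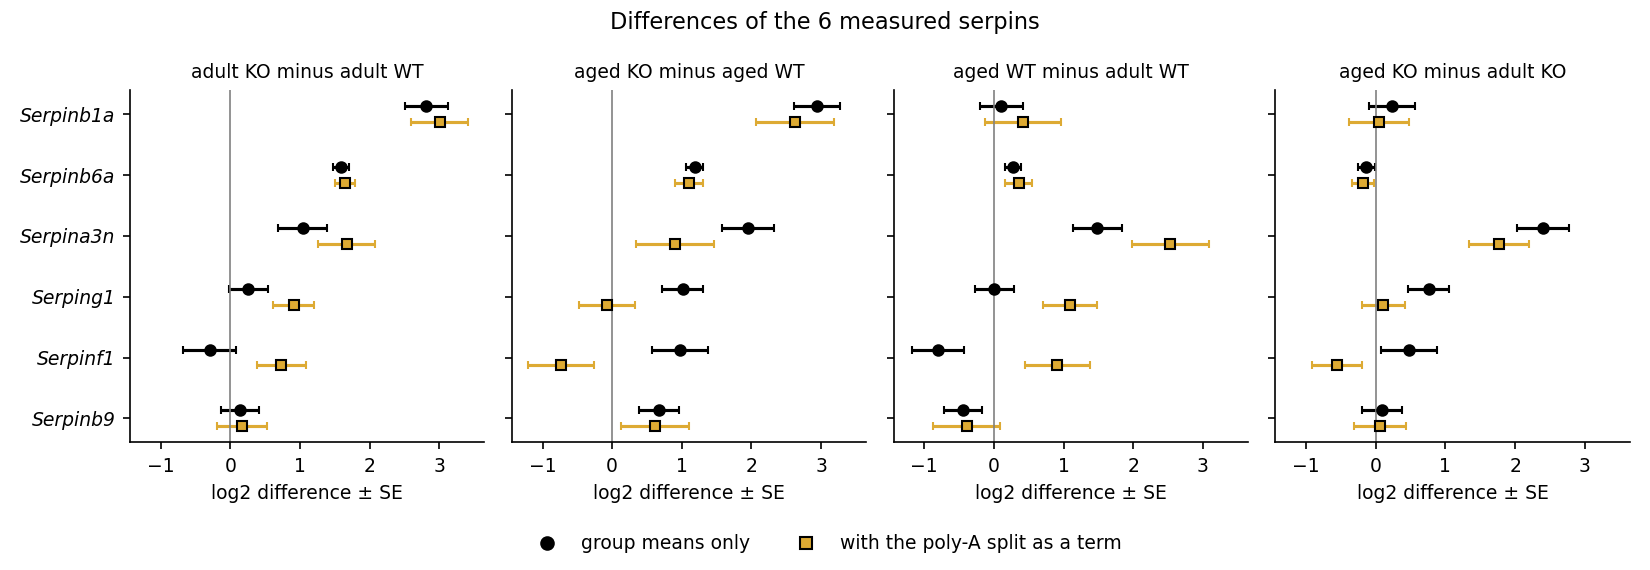
Log2 differences (horizontal, ± SE from the limma model over 19 arrays) of the 6 measured serpins in 4 comparisons; circles are from the model of group means and squares from the model with the poly-A split as a term. Serpinb1a keeps a genotype difference between 2.62 and 3.0, whereas Serpinf1 turns from -0.30 to 0.73 in adult and from 0.98 to -0.74 in aged muscle.

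Within the split, where a genotype comparison can be made, Serpinb1a and Serpinb6a were higher in the knockout. Among arrays without poly-A signal, 2 adult knockout were set against 5 adult wild-type arrays. They differed by 3.0 (SE 0.43) for Serpinb1a, 1.64 (SE 0.19) for Serpinb6a, 1.67 (SE 0.48) for Serpina3n, 0.91 (SE 0.27) for Serping1, 0.73 (SE 0.31) for Serpinf1 and 0.17 (SE 0.38) for Serpinb9. These are the same estimates as the adult differences with the split as a term and no second reading. They use part of the arrays whose genotype served in the choice. Among arrays with poly-A signal, where the wild-type mice were aged and the knockout mice adult, the 3 against 5 arrays differed by 2.58 for Serpinb1a and 1.29 for Serpinb6a. In the same comparison Serpina3n was lower in the adult knockout, at -0.87, and Serpinb9, Serpinf1 and Serping1 differed by 0.56, -0.18 and -0.18.

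Transcripts of the proteases that these serpins are known to inhibit were mostly dim here. The arrays read RNA, so the amount of protease protein in the muscle was not measured. Genotype p-values in this and the following lists are descriptive, since the lists were chosen with earlier results known. Their counts stand beside the shares of all tested genes. Those were 7.32% higher and 9.37% lower in adult knockout muscle, and 16.9% higher and 12.5% lower in aged knockout muscle. Neutrophil elastase (Elane), cathepsin G (Ctsg) and proteinase 3 (Prtn3), targets of Serpinb1a, stayed at or below 83.0, 55.5 and 69.9 on every array and were not tested. Granzyme B (Gzmb), the target of Serpinb9, reached 28.9, and 0 of 10 granzyme and perforin genes passed the filter on dim genes, among them the brightest 3, Prf1, Gzmm and Gzmk. Of 11 named neutrophil and mast cell protease genes 5 were tested, led by the mast cell genes Tpsab1, Cma1 and Cpa3. In adult muscle limma called 0 of 5 by genotype (median -0.62), with 2 at an unadjusted p under 0.05. In aged muscle Cpa3 was higher in the knockout by 1.15 (limma adjusted p = 0.049), which was 0.50 (limma adjusted p = 0.694) with the split as a term.

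Of the complement C1 and contact protease list, 6 of 11 named genes were tested, led by C1s1, C1qb and C1ra. C1s1, which encodes the C1s protease blocked by the C1 inhibitor, was higher in the knockout by 0.86 (limma adjusted p = 0.006) in adult and 1.0 (limma adjusted p = 0.002) in aged muscle, and by 1.15 (limma adjusted p = 0.01) in adult and 0.52 (limma adjusted p = 0.328) in aged muscle with the split as a term. C1ra, which encodes C1r, was higher by 1.12 (limma adjusted p = 0.004) in aged knockout muscle, and by 0.52 (limma adjusted p = 0.443) with the split as a term. In all, 1 of the 6 was higher in adult and 2 in aged knockout muscle, at medians of 0.15 and 0.77. C1ra was also the gene whose pattern was most like that of Serping1, at r = 0.93 over 19 arrays and r = 0.88 for deviations from group means.

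Lysosomal cathepsins were bright, led by Ctsb, Ctsl and Ctsd. Of 10 tested, 2 were higher (Ctsl and Ctss) and 2 lower (Ctsb and Ctsd) in adult knockout muscle, and 4 were higher (Ctsb, Ctsl, Ctsz and Ctsa) in aged knockout muscle. Ctsl was higher by 0.45 in adult and 0.84 in aged muscle. None of the 10 passed in either genotype comparison (0 by limma) when the split was a term, with 6 and 3 at an unadjusted p under 0.05. The list median moved from 0.21 to 0.64 in adult and from 0.67 to -0.02 in aged muscle, and Ctsl was then 0.58 (limma adjusted p = 0.0601) and 0.61 (limma adjusted p = 0.131).

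Among the plasminogen activator and coagulation genes, 5 were tested, led by Thbd (thrombomodulin), F2r (a thrombin receptor) and Plat (tissue plasminogen activator). Adult knockout muscle had 2 of 5 higher, F2r by 1.08 and F3 by 1.16, and aged knockout muscle had 3 of 5 lower, Thbd, F2r and Plaur. The model with the split had 1 lower in adult muscle and 0 past the limma threshold in aged muscle, where 0 had an unadjusted p under 0.05. Protease inhibitors outside the serpin family numbered 13 tested genes, led by Cst3, Cstb and Timp2. Adult knockout muscle had 3 higher and 1 lower, and aged knockout muscle 2 higher and 3 lower. Timp2, a metalloproteinase inhibitor, was higher by 0.64 (limma adjusted p = 0.034) in adult and 0.96 (limma adjusted p = 0.003) in aged knockout muscle, with 1.05 (limma adjusted p = 0.01) and 0.28 (limma adjusted p = 0.598) when the split was a term. Timp4 differed by -1.23 (limma adjusted p = 0.027) in adult and -2.67 in aged muscle, or -1.45 (limma adjusted p = 0.082) and -2.31 (limma adjusted p = 0.049) under the model with the split.

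Other serpins were mostly near background. Of 53 listed, 24 were named on the array, 2 were tested, and 4 were never above the trpn control probe sets. Serpinb8, a furin inhibitor of the same clade as Serpinb1a, had signals of 371 ± 190 (SD, n = 5) in adult wild-type, 350 ± 87 (SD, n = 5) in aged wild-type, 864 ± 324 (SD, n = 5) in adult knockout and 1213 ± 146 (SD, n = 4) in aged knockout muscle. It was higher in the knockout by 1.35 (SE 0.34, limma adjusted p = 0.0124) in adult and 1.74 (SE 0.37, limma adjusted p = 0.00184) in aged muscle. Under the model with the split these differences were 1.88 (limma adjusted p = 0.0159) and 0.86 (limma adjusted p = 0.363). The list of other serpins was chosen with earlier results known, so its genotype p-values are descriptive. Serpinh1, the collagen chaperone Hsp47, was lower in adult knockout muscle by -1.37 (SE 0.32, limma adjusted p = 0.00723), which was -0.56 (limma adjusted p = 0.287) with the split as a term. In aged muscle it differed by -0.11 (SE 0.34, limma adjusted p = 0.828), and by -1.47 (limma adjusted p = 0.0499) with the split as a term.

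Acute phase and STAT3 target genes gave another view of the Serpina3n pattern. Of 17 tested, 13 rose and 1, Il6st, fell with age in wild-type muscle, at a median of 0.97, and 2 rose, Il6st and Saa1, in knockout muscle, at a median of 0.17. The brightest 3, the metallothioneins Mt1 and Mt2 and the transcription factor gene Cebpb, rose in wild-type muscle by 0.86, 0.65 and 0.91 and differed in knockout muscle by 0.07, -0.05 and -0.69. Between genotypes in adult muscle 3 of 17, Saa3, Socs3 and Osmr, were higher and 0 lower in the knockout, at a median of 0.45. With the split as a term limma called 0 there, at a median of 0.17, with 2 higher and 1 lower at an unadjusted p under 0.05. In aged muscle 2 of 17 were higher and 5 lower in the knockout, at a median of -0.49. With the split as a term 1 was higher and 0 lower in aged muscle, at a median of -0.03. When the split was a term, limma called 0 of 17 for age in wild-type muscle, with 7 at an unadjusted p under 0.05 and a median of 0.88. In knockout muscle that model had 2 rise with age, Il6st and Fgl2, at a median of 0.47, and Saa1 no longer passed (limma adjusted p = 0.0671). The summed signal of the 22 named genes was highest in aged wild-type muscle, 57022 to 73602, against 39008 to 60539 in aged knockout muscle. These 2 groups lie on opposite sides of the poly-A split. Within adult knockout muscle the sum was 38780 to 45409 without and 46855 to 63765 with poly-A signal. Mt1 and Mt2 weigh heavily in it, with means of 19432 and 17526 in aged wild-type muscle.

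The genes whose log2 values over 19 arrays were most like those of Serpinb1a were Serpinb6a (r = 0.94), App (r = 0.94), Cacng1 (r = 0.93), Plp2 (r = 0.93) and Sln (r = 0.92), with r of 0.33, 0.40, 0.04, 0.15 and 0.11 for deviations from the group means. App encodes the amyloid precursor protein, Cacng1 a calcium channel subunit of skeletal muscle, and Sln sarcolipin. Those most like Serpina3n were Mmp3 (r = 0.88), Asns (r = 0.87), Rpl7a (r = 0.86), Slc25a5 (r = 0.86) and Cct4 (r = 0.85), with r of 0.55, 0.48, 0.43, 0.69 and 0.43 for deviations. Mmp3 encodes the metalloproteinase stromelysin-1, Asns asparagine synthetase and Slc25a5 an ADP/ATP carrier. The arrays share their groups and the poly-A split, and these values describe likeness only.

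Serpins of clades A and B belong to families of near-identical copies, and the probe sets may read more than one copy. Whether the Serpina3n probe set also reads other Serpina3 genes, or the Serpinb6a probe set other Serpinb6 genes, was not tested.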

How the data were processed

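RNA from 19 muscle samples was hybridised to 1-colour Affymetrix arrays. The authors deposited linear MAS5 signal intensity per probe set, with MAS5 named per the submitters' processing notes; no genome build is stated in the material used. Of 22690 probe sets, 64 controls were left out and 20380 had 1 gene symbol. Values were log2(signal + 4.76), the pseudocount being the 10th percentile, and quantile normalized because array medians spanned 0.63. Each gene was represented by its brightest probe set on average; the brightest 60% went into limma 3.58.1 (R 4.3.3), a mean per group and Benjamini-Hochberg adjustment over 7436 genes at 0.05. The script was tested on simulated data. The precision is limited by the 4 or 5 arrays a group. Members and lists (other serpins, target proteases, inhibitors, acute phase and interferon targets, cell markers) were chosen with earlier results of these data known. Named were all members, other tested serpins and the 3 brightest genes of the protease, inhibitor, acute phase and fibroblast lists. The 3 brightest were not listed for the interferon targets and the other cell markers. Also named were the 5 tested genes most like Serpinb1a and Serpina3n, passing over clone-style symbols. Other genes were named after their values were seen. Promoter windows were trimmed to the bases before the start site. The poly-A split was found from the control probe sets. Lists used beside them were T and NK cell markers (1 of 14 named genes tested, Zap70, lower in aged knockout by -0.59) and satellite cell and regeneration markers (10 tested, 4 higher and 3 lower in adult and 4 higher and 4 lower in aged knockout muscle, Des among them). Interferon targets had 1 of 18 higher in adult, and 1 higher and 2 lower in aged knockout muscle; myofibre markers had 0 of 16 and 2 of 16 higher. Fibroblast markers had 2 of 15 lower in adult and 4 of 15 higher in aged knockout muscle, and 2 higher in adult and 0 called in aged muscle with the poly-A split as a term (limma). Alternatives are given at the end. Figures were drawn with matplotlib 3.10.9.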

Additional observations from a re-analysis of the deposited data

Results flagged for a closer look

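For Serpina3n in adult wild-type muscle, replicate 4 (signal 235, against 738 to 887 on the other 4 arrays) stood apart from its group: its gap to the nearest array was 0.812 of the group's range on the log2 scale, above Dixon's 95% critical value. In aged knockout muscle, replicate 2 (signal 4728, against 6747 to 8067) stood apart with a gap of 0.845 of the range, again above that value; it is also the array of the highest Gapdh 3′ to 5′ ratio, 8.61. Over the 6 serpins and 4 groups, 24 such checks were made and 2 stood out, where chance gives about 1 in 20.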

How the results depend on the processing

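No paired analysis was possible because the groups share fewer than 2 numbers in the labels: the titles end in codes whose meaning is not stated, with 1 stem common to aged wild-type and aged knockout samples, and these codes were not used. The genotype differences were followed over the alternatives run and with each array left out. Those of Serpinb1a stayed between 2.58 and 3.08 in adult and between 2.58 and 3.15 in aged muscle. Those of Serpinb6a stayed between 1.29 and 1.92 in adult and between 1.07 and 1.23 in aged muscle. The lower adult limits, 2.58 and 1.29, compare adult knockout with aged wild-type arrays, so age differs there too. Leaving out each array moved Serpina3n for age between 1.10 and 1.63 in wild-type and between 2.18 and 2.59 in knockout muscle, with every call kept.

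Small Serpinb1a values without a call changed sign: the knockout age difference was -0.0009 with median centring, the wild-type age difference -0.13 with array weights and -0.12 to 0.27 over arrays left out, and the interaction -0.23 with median centring, -0.18 with the mean of probe sets, -0.48 with the other probe set, -0.38 with the split as a term and -0.11 to 0.35 over arrays left out. The wild-type age difference of Serpinb1a was highest, at 0.77, with the other probe set. The poly-A split as a term moved Serpina3n to 1.67 in adult and 0.91 in aged muscle for genotype, to 2.53 (no longer called) for age in wild-type muscle and to -0.76 for the interaction; it turned Serping1 in aged muscle to -0.073 and for the interaction to -0.98, and Serpinf1 to 0.91 and -0.56 for age and -1.47 for the interaction. Arrays without poly-A signal alone gave Serpina3n 1.67 for adult genotype and 1.77 (no longer called) for age in knockout muscle, and Serpinf1 -0.56 for the latter; arrays with it gave Serpina3n -0.87 for adult knockout against aged wild-type. Without the arrays of high Gapdh ratio, Serpinb9 turned to -0.46 for age in knockout muscle and to -0.013 for the interaction. With that and the split as a term, the values were 1.67, 1.06 and 2.53 (no longer called) for Serpina3n in adult genotype, aged genotype and wild-type age, -0.61 for its interaction, -0.35 for that of Serpinb1a, -0.14 and -1.05 for Serping1 in aged genotype and interaction, 0.91, -0.77 and -1.68 for Serpinf1 in wild-type age, knockout age and interaction, and -0.49 and -0.10 for Serpinb9 in knockout age and interaction. The Serpina3n interaction was called at 1.56 with array weights and ranged from 0.70 to 1.30 over arrays left out, called only without adult wild-type replicate 4. Serping1 for age in wild-type muscle was -0.20 with array weights, 1.09 with the split as a term and -0.11 to 0.18 over arrays left out. Serpinb9 for age in knockout muscle was -0.20 to 0.40 over arrays left out. The cause was not tested.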
